A study of Homo sapiens with 16 samples.

Results

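The levels of 10 genes of fatty acid desaturation, elongation and release were examined in venetoclax-resistant clones of myeloma cell lines. They are the phospholipase gene PLA2G16, the desaturase genes FADS1, FADS2, FADS3 and SCD, the elongase genes ELOVL1, ELOVL5 and ELOVL6, the carboxylase gene ACACA and the acyl-CoA synthetase gene ACSL3. They were chosen by symbol, and the set was picked because FADS1 was lower in KMS12PE clones and PLA2G16 was lost in KMS27 clones, so those contrasts are given as descriptions with no test. Of the 10 genes, 9 are among the 12592 genes in the KMS12PE count table, where ELOVL6 is not listed, and all 10 are among the 14560 genes in the KMS27 table. Every listed member passed the filter on low counts.

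RNA was measured in 8 cell populations, with 2 libraries each and 16 libraries in all. KMS12PE and KMS27 are human myeloma cell lines that carry t(11;14) and are sensitive to venetoclax, an inhibitor of BCL2. From KMS12PE there were clones A, C and D and the parental cells (replicates 1 and 3), and from KMS27 there were clones B5, C1 and C5 and the parental cells (replicates 1 and 2). Each clone grew from 1 single cell that survived high-dose venetoclax and was kept in 100 nM of the drug, in RPMI-1640 with serum like the parental cells. The labels give no drug dose for the parental cells, so drug, selection and single-cell origin cannot be told apart in any contrast of clones with parental cells. Nothing states that the 2 libraries of a population came from separate cultures, so the p-values measure the spread between these libraries, which may be technical. The smallest and largest libraries held 5831289 and 13674426 counts in KMS12PE, and 20257318 and 52615971 counts in KMS27.

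Cells make palmitate from malonyl-CoA, lengthen it with ELOVL enzymes in the endoplasmic reticulum, and add double bonds with desaturases that take electrons from cytochrome b5. SCD makes oleate-type monounsaturated acids. FADS2 and FADS1 act in turn on dietary linoleate and linolenate, with an elongation step by ELOVL5 in between, to make the polyunsaturated acids of membranes. Many of these genes are targets of the SREBP transcription factors. PLA2G16, named PLAAT3 in newer annotations, releases fatty acids from phospholipids and is best known in adipose tissue. Plasma cells, the normal counterpart of myeloma, expand their endoplasmic reticulum membranes to secrete antibody.

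The promoters of FADS1, FADS2 and SCD, the desaturase genes that were lower together in KMS12PE clones, and of PLA2G16 are shown to set their sequences side by side. Each window holds 250 bases before and 50 bases after a RefSeq start on GRCh38.p14, read 5′ to 3′ on the strand of the gene. Capitals mark the CCAAT box (CCAAT, either strand), the E box (CACGTG) and a sterol regulatory element (ATCAC and CCAC with 1 base of any kind between them, either strand). The windows are chr11:61816954-61817253 (minus strand) for FADS1, chr11:61816154-61816453 (plus strand, the second of 2 listed starts) for FADS2, chr10:100346983-100347282 (plus strand) for SCD and chr11:63614388-63614687 (minus strand, the first of 2 listed starts) for PLA2G16.
FADS1: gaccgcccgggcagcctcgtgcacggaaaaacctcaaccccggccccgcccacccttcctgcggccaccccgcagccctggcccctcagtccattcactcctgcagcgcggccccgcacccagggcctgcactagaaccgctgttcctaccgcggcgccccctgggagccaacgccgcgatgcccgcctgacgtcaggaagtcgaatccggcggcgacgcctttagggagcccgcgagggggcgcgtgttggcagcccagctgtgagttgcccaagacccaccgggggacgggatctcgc
FADS2: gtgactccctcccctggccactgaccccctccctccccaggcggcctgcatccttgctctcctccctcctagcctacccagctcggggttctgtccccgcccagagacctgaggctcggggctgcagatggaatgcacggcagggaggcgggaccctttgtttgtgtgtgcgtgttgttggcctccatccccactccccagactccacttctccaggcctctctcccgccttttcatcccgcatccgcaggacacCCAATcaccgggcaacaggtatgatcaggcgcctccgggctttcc
SCD: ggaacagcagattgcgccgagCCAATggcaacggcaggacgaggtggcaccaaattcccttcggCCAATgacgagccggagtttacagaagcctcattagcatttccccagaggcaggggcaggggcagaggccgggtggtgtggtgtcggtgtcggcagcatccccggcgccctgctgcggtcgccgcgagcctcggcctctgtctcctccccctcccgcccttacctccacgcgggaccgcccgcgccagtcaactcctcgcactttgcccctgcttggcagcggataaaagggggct
PLA2G16: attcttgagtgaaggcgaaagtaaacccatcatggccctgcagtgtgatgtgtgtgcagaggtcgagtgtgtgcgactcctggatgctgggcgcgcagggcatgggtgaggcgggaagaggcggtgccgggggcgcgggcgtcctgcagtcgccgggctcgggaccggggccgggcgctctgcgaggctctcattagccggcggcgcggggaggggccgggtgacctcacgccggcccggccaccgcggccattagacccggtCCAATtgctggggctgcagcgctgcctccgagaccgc
The SCD window holds CCAAT at positions -229 and -186 from the start, the FADS2 window holds it at position 6 after the start and the PLA2G16 window at position 14, while the FADS1 window holds none of the 3 motifs. None of the 10 members had a match to the sterol regulatory element in its windows, and 0.154% of the 35116 promoters of the RefSeq table do. CCAAT was present in 34.6% of those promoters and CACGTG in 7.26%, and of the members ELOVL5 alone held CACGTG. The GC box (GGGCGG, either strand), not put in capitals, was present in 45.0% of promoters, and in the windows shown for FADS1, FADS2 and SCD but not for PLA2G16. The windows of FADS1 and PLA2G16 held 32 CpG dinucleotides each, SCD 25 and FADS2 13, against a median of 14 over all promoters. A letter match is a description of the sequence and not a site of binding.

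By GENCODE release 29 on GRCh38, FADS1 lies at chr11:61799625-61829318 on the minus strand and FADS2 at chr11:61792980-61867354 on the plus strand. The RefSeq start of FADS1 and the FADS2 start shown are 599 bases apart, and transcripts from these starts run towards and across each other. The counts are by gene, so which start of either gene the cells used is not known. The annotated exons of FADS1 and FADS2 share 490 bases, which is 4.79% of the exon length of FADS1 and 4.44% of that of FADS2. Whether the counting used strand is not known, so reads from that stretch may have gone to either gene. FADS3 (chr11:61873519-61892051, minus strand) is next to FADS2, and PLA2G16 (chr11:63573195-63616883, minus strand) starts 1788 kb from the GENCODE start of FADS1. The other members are on other chromosomes, with SCD at chr10:100347124-100364834, ELOVL1 at chr1:43363397-43368074, ELOVL5 at chr6:53267398-53349179, ELOVL6 at chr4:110045846-110199199, ACACA at chr17:37084988-37406818 and ACSL3 at chr2:222860934-222944639.

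PLA2G16 was at 0 in clones B5 and C5 of KMS27, was retained at a low level in clone C1, and was higher in the clones of KMS12PE than in their parental cells. Levels are given as CPM, the count of a gene over the library total scaled by edgeR's TMM factor. In KMS27, PLA2G16 had 0 and 0 counts in the clone B5 libraries, 42 and 20 counts in the clone C1 libraries and 0 and 0 counts in the clone C5 libraries, against 336 and 340 counts in the parental libraries. Every clone library was far under both parental libraries, and the groups did not overlap. Clone C1 averaged 0.801 ± 0.0466 CPM and parental cells averaged 12.7 ± 0.760 CPM (SD, n = 2 each), so C1 was 15.9-fold lower and held 6.30% of the parental level. With 3 counts over the population as the limit that a count of 0 allows, which covers counting error only, PLA2G16 was at least 182-fold lower in clone B5 and at least 232-fold lower in clone C5 than in parental cells. These folds describe the contrast by which the gene was picked and carry no test. In a bulk sample, fewer cells with the transcript and less transcript per cell cannot be told apart.

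PLA2G16 passed the filter of the KMS27 table through its C1 and parental libraries, so its difference between the KMS27 clones is given with no test either. Clone C1 was at least 11.4-fold above the limit of clone B5 and at least 14.6-fold above that of clone C5. The 5 other tested genes whose profile over the 8 KMS27 libraries was closest to that of PLA2G16, among 11883 candidates, were ENO2, CD163L1, LPO, RPH3A and MSR1, with root mean square distances of 0.781 to 1.45 on centred log2 CPM. ENO2, the neuronal form of the glycolytic enzyme enolase, averaged 0.163 CPM in B5, 1.69 CPM in C1 and 0.334 CPM in C5, against 18.2 CPM in parental cells. ENO2 was chosen for its closeness to PLA2G16, so its order of populations is no separate result. MSR1, the farthest of the 5, averaged 1.09 CPM in B5, 11.5 CPM in C1 and 0.512 CPM in C5, against 16.6 CPM in parental cells.

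In KMS12PE, PLA2G16 was higher in the clones. It had 48.5 and 50.0 CPM in clone A, 50.4 and 48.8 CPM in clone C and 55.5 and 45.8 CPM in clone D, against 32.3 and 35.5 CPM in parental cells. All 6 clone libraries were above both parental libraries, which held for 4.53% of all genes tested. Clones averaged 49.8 ± 0.713 CPM (SD over 3 clones) and parental cells averaged 33.9 ± 2.25 CPM (SD, n = 2), a log2 fold change of 0.55 ± 0.10 (SE) with an adjusted p of 0.0378 in edgeR's test. PLA2G16 was the only one of the 8 other members called in this contrast, at an adjusted p under 0.05 and against 1.47% of all genes tested. With the replicate number as a block the adjusted p was 0.000354. The call was lost without A replicate 1 (adjusted p = 0.0831), A replicate 3 (0.110), C replicate 1 (0.0839), C replicate 3 (0.0832), parental replicate 1 (0.293) or parental replicate 3 (0.186). By clone, PLA2G16 was 0.54 higher on the log2 scale in A (adjusted p = 0.139), 0.55 in C (0.0656) and 0.57 in D (0.0290), and with the block A (0.00295) and C (0.00112) were called too. The call in D was lost without A replicate 3 (adjusted p = 0.0595), C replicate 3 (0.0531), D replicate 1 (0.114), parental replicate 1 (0.135) or parental replicate 3 (0.0812), and in a fit of D and parental libraries alone (0.110). No difference among the 3 clones passed the test (adjusted p = 0.986), and the interval of D minus A ran from -0.23 to 0.29 on the log2 scale.

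**Figure D1:**
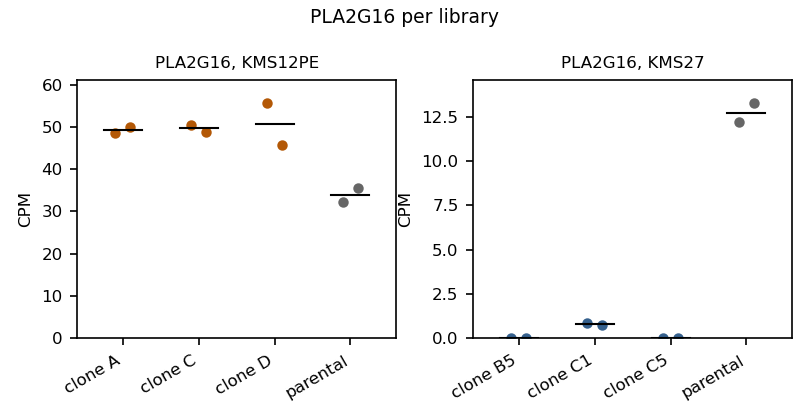
PLA2G16 in CPM for each library of KMS12PE and KMS27, by population, with points for libraries and bars for population means. The KMS12PE clone libraries lie between 45.8 and 55.5 CPM, above both parental libraries at 32.3 and 35.5 CPM, and the KMS27 clone libraries lie at 0 to 0.834 CPM, under the parental libraries at 12.2 and 13.3 CPM.

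The desaturase genes FADS2 and SCD were each lower in all 6 KMS12PE clone libraries than in both parental libraries, which held for 4.63% of all genes tested in that line. So was FADS1, which was picked for its fall in these clones. FADS1, which makes arachidonate and eicosapentaenoate, had 136 and 133 CPM in clone A, 133 and 142 CPM in clone C and 147 and 150.2 CPM in clone D, against 204 and 197 CPM in parental cells. The clone libraries spanned a narrow range well under the parental one. Clones averaged 140.5 ± 7.29 CPM (SD over 3 clones), 69.9% of the parental mean of 200.9 ± 4.82 CPM (SD, n = 2). The log2 fold change was -0.52 ± 0.063 (SE) for the mean of the clones, -0.57 in A, -0.54 in C and -0.43 in D, given with no test because FADS1 was picked for this fall. The 3 clones did not differ past the threshold (edgeR adjusted p = 0.551), and the interval of D minus A ran from -0.04 to 0.32.

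FADS2, the enzyme that opens the polyunsaturated pathway, had 208 and 180.1 CPM in clone A, 229 and 226 CPM in clone C and 208 and 176 CPM in clone D, against 347 and 257 CPM in parental cells. The groups did not overlap, but the 2 parental libraries were far apart. Clones averaged 204 ± 20.0 CPM (SD over 3 clones) and parental cells averaged 302 ± 64.0 CPM (SD, n = 2), with a log2 fold change of -0.57 ± 0.12 (SE) that missed the threshold (edgeR adjusted p = 0.0637). It was called with the replicate block (adjusted p = 4.22e-06), by DESeq2 (0.000452) and without D replicate 1 (0.0396). Clone D on its own was called, at a log2 fold change of -0.66 (adjusted p = 0.0405). That call was lost without A replicate 1 (0.0634), A replicate 3 (0.0619), C replicate 1 (0.0714), C replicate 3 (0.0633), D replicate 3 (0.165) or parental replicate 1 (0.198), and in a fit of D and parental libraries alone (0.0903). Clones A (adjusted p = 0.169) and C (0.336) passed only with the block (2.78e-05 and 0.00257), and A also by DESeq2 (0.00380).

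SCD, which puts the first double bond into saturated acids, had 582 and 541 CPM in clone A, 617 and 635 CPM in clone C and 565 and 485 CPM in clone D, against 889.6 and 690.3 CPM in parental cells. As for FADS2, every clone library was below both parental libraries, and parental replicate 1 stood above replicate 3. On average, clones had 571 ± 51.2 CPM (SD over 3 clones) and parental cells averaged 789.9 ± 141 CPM (SD, n = 2), with a log2 fold change of -0.47 ± 0.11 (SE) and an edgeR adjusted p of 0.0847. SCD was called with the block (adjusted p = 4.15e-05) and by DESeq2 (0.000730). In clone D the log2 fold change of -0.59 was called (adjusted p = 0.0387), and the call was lost without A replicate 1 (0.0742), A replicate 3 (0.0734), C replicate 1 (0.0657), C replicate 3 (0.0617), D replicate 3 (0.162) or parental replicate 1 (0.188), and in a fit of D and parental libraries alone (0.112). With the block SCD was called in A (0.000642) and C (0.0143) too. Clone D had 3 of 8 other members called (PLA2G16, FADS2 and SCD), against 5.16% of all genes tested. Clone A had 0 of 8 called by edgeR (0.448% of all genes), 4 of 8 with the block (3.65%), 4 of 8 at an unadjusted p under 0.05 (7.26%) and 2 of 8 by DESeq2 (0.762%). Clone C had 0 of 8 called by edgeR (1.78% of all genes), 4 of 8 with the block (7.08%), 4 of 8 at an unadjusted p under 0.05 (10.3%) and 0 of 8 by DESeq2 (2.02%).

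In KMS27, FADS1 and FADS2 were below parental cells in clones C1 and C5, and SCD overlapped. FADS1 had 125 and 152 CPM in clone B5, 110.4 and 105 CPM in clone C1 and 92.4 and 108 CPM in clone C5, against 136 and 141 CPM in parental cells. Clones C1 and C5 were below both parental libraries, and the B5 libraries lay on either side of them. The mean of the clones had a log2 fold change of -0.28 ± 0.10 (SE, adjusted p = 0.0774), and C5 on its own one of -0.47 that was called (0.0313). The C5 call was lost without C1 replicate 1 (0.0635), C1 replicate 2 (0.0622), C5 replicate 1 (0.236), C5 replicate 2 (0.0770), parental replicate 1 (0.129) or parental replicate 2 (0.158). Leaving out both B5 libraries, an alternative chosen after seeing the data because their replicates were the least alike, put the mean of the other clones at -0.42 for FADS1 (0.00226) and -0.46 for FADS2 (0.00955). With the block the mean of all 3 clones was called for FADS1 (0.0445) and FADS2 (0.0184). FADS2 had 43.4 and 55.0 CPM in B5, 32.6 and 41.4 CPM in C1 and 34.3 and 45.7 CPM in C5, against 51.4 and 53.7 CPM in parental cells, and its mean log2 fold change of -0.33 ± 0.14 (SE) was not called with all libraries (adjusted p = 0.117). SCD ranged from 152 to 221 CPM in clone libraries, against 207 and 200.9 CPM in parental libraries, with a log2 fold change of -0.06 and an interval from -0.34 to 0.22 (adjusted p = 0.770). The groups overlapped for both genes.

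**Figure D2:**
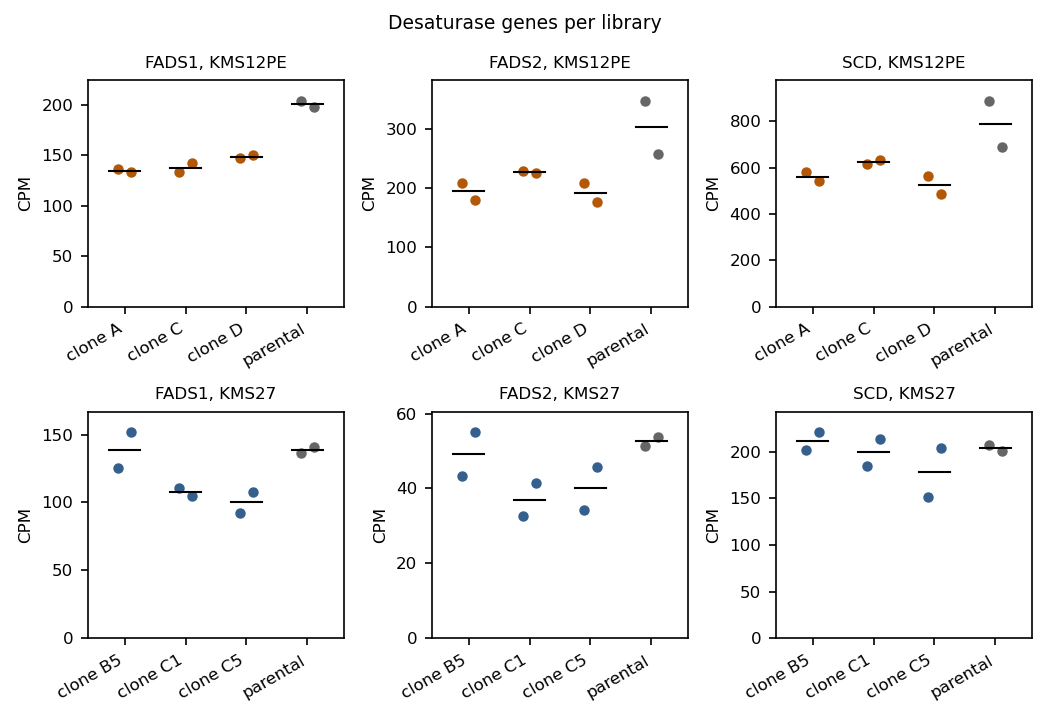
FADS1, FADS2 and SCD in CPM for each library of KMS12PE and KMS27, by population, with points for libraries and bars for population means. In KMS12PE every clone library lies below both parental libraries for all 3 genes, and in KMS27 clone and parental libraries overlap.

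FADS3, which desaturates sphingoid bases rather than free fatty acids, fell in KMS27 clones. There it had 16.6 and 19.4 CPM in clone B5, 26.5 and 23.8 CPM in clone C1 and 18.0 and 20.1 CPM in clone C5, against 32.7 and 32.8 CPM in parental cells. All 6 clone libraries were below both parental libraries, with C1 the nearest to them. FADS3 fell by 0.68 ± 0.10 on the log2 scale (SE, edgeR adjusted p = 0.00166) in the mean of the clones, and the fall was called without each single library (adjusted p up to 0.0262) and in the other alternatives run. It was called in B5 (log2 fold change -0.87, adjusted p = 0.00222) and C5 (-0.78, 0.00360) and not in C1 (-0.38, 0.0639), and the C5 call was lost without C5 replicate 1 (0.0535). In KMS12PE FADS3 was scarce, with 6.18 and 7.04 CPM in clone A, 5.29 and 7.90 CPM in clone C and 2.52 and 2.67 CPM in clone D, against 5.09 and 4.40 CPM in parental cells. Clones A and C lay above both parental libraries and clone D below both. The mean of the clones was not called (log2 fold change 0.04, interval -0.50 to 0.57, adjusted p = 0.994).

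Clone D held less FADS3 than the other KMS12PE clones. D minus A and D minus C were each -1.34 on the log2 scale (adjusted p = 0.0230 and 0.0186), and the joint test among the clones gave an adjusted p of 0.0290. FADS3 was the only one of 9 members that differed among KMS12PE clones, where 8.22% of all genes did. These values rest on 16 and 30 counts in D. The joint call was lost without A replicate 1 (0.0712), A replicate 3 (0.0821), C replicate 3 (0.0554), D replicate 1 (0.117), D replicate 3 (0.146), parental replicate 1 (0.0579) or parental replicate 3 (0.0565), and by DESeq2 (0.0948). With the replicate block the joint test gave FADS3 an adjusted p of 0.000569. FADS2 (0.0303), ELOVL1 (0.00709) and ELOVL5 (0.00100) were then called among the clones as well, as were 26.1% of all genes tested.

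ELOVL6, the elongase that turns palmitate into stearate, fell in KMS27 clones by amounts that differed between them. It had 21.2 and 17.3 CPM in clone B5, 13.2 and 11.9 CPM in clone C1 and 7.72 and 8.74 CPM in clone C5, against 24.6 and 25.4 CPM in parental cells. No clone library reached the parental range, and no library of 1 clone reached the range of the next. The population means were 77.2% of the parental mean in B5, 50.3% in C1 and 33.0% in C5. The log2 fold change of the mean of the clones was -0.99 ± 0.11 (SE, edgeR adjusted p = 0.000400), the smallest adjusted p of the 9 members tested in this contrast. Clones C1 (-0.99, adjusted p = 0.00240) and C5 (-1.60, 0.000181) were called, and B5 was not (-0.37, 0.104). The clones differed among themselves (adjusted p = 0.00389), with log2 fold changes of -0.62 for C1 over B5 (adjusted p = 0.0294) and -1.23 for C5 over B5 (0.00275), while C5 over C1 missed the threshold (-0.61, 0.0547). The calls for the mean, for C1, for C5 and among the clones were kept without each single library and in all other alternatives run for them.

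**Figure D3:**
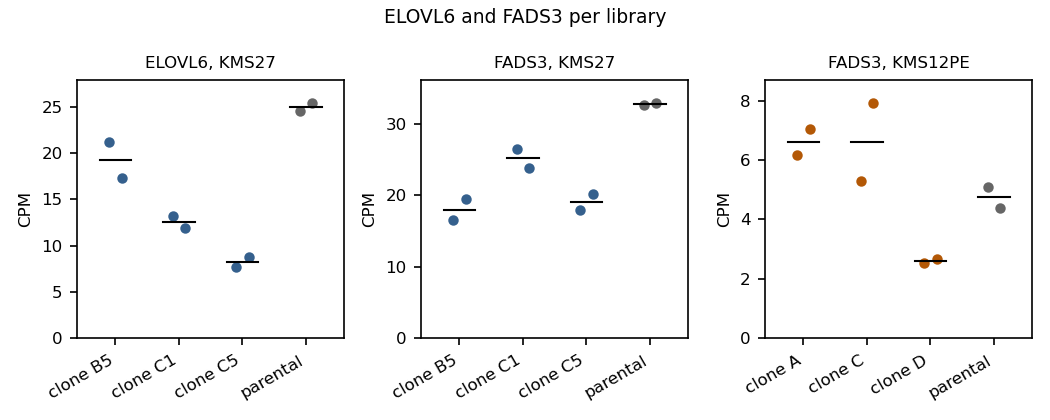
ELOVL6 in KMS27 and FADS3 in KMS27 and KMS12PE, in CPM for each library by population, with points for libraries and bars for population means. ELOVL6 lies below the parental libraries at 24.6 and 25.4 CPM in every KMS27 clone and is lowest in C5, and FADS3 lies below parental cells in all KMS27 clones and in clone D of KMS12PE.

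ELOVL5, the elongase of polyunsaturated acids, was higher in KMS27 clones. It had 184 and 232 CPM in clone B5, 194 and 203 CPM in clone C1 and 165 and 163 CPM in clone C5, against 143 and 145 CPM in parental cells. All clone libraries were above both parental libraries, with C5 the closest. The mean of the clones rose by 0.39 ± 0.11 on the log2 scale (SE, edgeR adjusted p = 0.0261). B5 (0.53, adjusted p = 0.0190) and C1 (0.46, 0.0321) were called and C5 was not (0.19, 0.352). In a fit of B5 and parental libraries alone, the B5 call was lost (edgeR adjusted p = 0.101). The mean call was lost without C1 replicate 1 (0.0578), C1 replicate 2 (0.0628), C5 replicate 1 (0.0655), C5 replicate 2 (0.0653), parental replicate 1 (0.195) or parental replicate 2 (0.146). The B5 call was lost without parental replicate 1 (0.122) or 2 (0.101), and the C1 call without parental replicate 1 (0.175) or 2 (0.129), C1 replicate 1 (0.133) or 2 (0.142), or C5 replicate 1 (0.0657) or 2 (0.0654). ELOVL1, the elongase of very long saturated acids, ranged from 47.2 to 62.6 CPM in KMS27 clone libraries, all above the 39.0 and 44.8 CPM of parental libraries, but its log2 fold change of 0.31 ± 0.12 (SE) was not called (0.0911). It was called without B5 replicate 1 (0.00426), without both B5 libraries (0.0340) or with the block (0.0323).

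In KMS12PE neither elongase passed the test. ELOVL5 ranged from 157 to 234 CPM in clone libraries, against 222 and 186 CPM in parental libraries (log2 fold change -0.15, interval -0.38 to 0.09, adjusted p = 0.739). ELOVL1 ranged from 45.3 to 62.2 CPM in clone libraries, against 52.3 and 60.5 CPM in parental libraries (log2 fold change -0.08, interval -0.28 to 0.11, adjusted p = 0.877). Clone and parental libraries overlapped for both. With the block ELOVL5 was called as lower in clone C (adjusted p = 0.0121) and ELOVL1 as lower in clone D (0.0425).

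ACACA, whose enzyme makes the malonyl-CoA used for synthesis and elongation, had 35.3 and 32.0 CPM in KMS27 clone B5, 45.3 and 49.1 CPM in clone C1 and 40.2 and 39.1 CPM in clone C5, against 51.8 and 47.5 CPM in parental cells. All but 1 of the 6 clone libraries, a library of C1, were under both parental libraries. ACACA fell by 0.32 ± 0.087 on the log2 scale in the mean of the clones (SE, edgeR adjusted p = 0.0267) and by 0.56 in B5 (adjusted p = 0.00758). C1 (-0.07, 0.662) and C5 (-0.32, 0.0675) were not called. In a fit of B5 and parental libraries alone, the B5 call was lost (edgeR adjusted p = 0.0564). The mean call was lost without parental replicate 1 (0.290), parental replicate 2 (0.0967), C1 replicate 1 (0.0677), C5 replicate 1 (0.0661), C5 replicate 2 (0.0722) or both B5 libraries (0.0879), and the B5 call without parental replicate 1 (0.0791). The clones differed (adjusted p = 0.0424), with C1 0.49 above B5 (0.0241). That joint call was lost without C1 replicate 1 (0.121), C1 replicate 2 (0.173), C5 replicate 1 (0.107), C5 replicate 2 (0.109), parental replicate 1 (0.0753) or parental replicate 2 (0.0777). In KMS12PE all clone libraries, from 390.1 to 416 CPM, lay between the parental libraries at 485 and 387 CPM (log2 fold change -0.10, adjusted p = 0.817).

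ACSL3, which activates fatty acids with coenzyme A at the endoplasmic reticulum and on lipid droplets, was higher in KMS27 clones. It had 49.9 and 50.0 CPM in clone B5, 43.0 and 43.2 CPM in clone C1 and 50.0 and 46.8 CPM in clone C5, against 36.1 and 38.6 CPM in parental cells. All clone libraries were above both parental libraries. The mean of the clones rose by 0.34 ± 0.083 on the log2 scale (SE, edgeR adjusted p = 0.0183). B5 (0.42, 0.0180) and C5 (0.38, 0.0289) were called and C1 was not (0.21, 0.165). In a fit of B5 and parental libraries alone, the B5 call was lost (edgeR adjusted p = 0.0812). The mean call was lost without parental replicate 1 (0.200) or 2 (0.0921), and the B5 call without parental replicate 1 (0.143) or 2 (0.0765). The C5 call was lost without parental replicate 1 (0.207) or 2 (0.107), C1 replicate 1 (0.0529) or 2 (0.0536), or C5 replicate 1 (0.169) or 2 (0.102). In KMS12PE ACSL3 ranged from 105 to 143 CPM in clone libraries, against 157 and 142 CPM in parental libraries. There all but 1 of the clone libraries, in D, were under both parental ones, with a log2 fold change of -0.26 ± 0.094 (SE) that was not called (adjusted p = 0.328) except with the block (0.00973, and 0.00240 in clone A).

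In KMS27, 5 of the 9 other members were called in the mean of the clones, against 25.8% of all genes tested. ELOVL5 and ACSL3 were higher, as 13.0% of all genes were, and FADS3, ELOVL6 and ACACA lower, as 12.7% were. By clone, 4 of 9 were called in B5 (21.0% of genes), 2 of 9 in C1 (21.6%) and 4 of 9 in C5 (19.7%). The median log2 fold change of the 9 was -0.28, and that of all genes tested was -0.01. In KMS12PE the median of the 8 other members was -0.13 and that of all genes -0.00. Clone and parental libraries of KMS27 did not overlap for ELOVL1, ELOVL5 and ACSL3 (clones higher) or for FADS3 and ELOVL6 (clones lower), as for 30.1% of all genes in either direction. Among the KMS27 clones 2 of the 9 differed (ELOVL6 and ACACA), as 13.7% of all genes did.

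The response of the clones was compared between the lines in 1 fit of all 16 libraries, as KMS12PE minus KMS27. Of 7 members that could be tested, 3 differed, against 14.2% of the 11623 genes in both tables. ACSL3 differed by -0.59 ± 0.13 on the log2 scale (SE, edgeR adjusted p = 0.00955), ELOVL5 by -0.53 ± 0.16 (0.0408) and FADS3 by 0.72 ± 0.22 (0.0473). No difference was called for FADS2 (-0.22, adjusted p = 0.538), SCD (-0.41, 0.167), ELOVL1 (-0.38, 0.114) or ACACA (0.22, 0.310). The ACSL3 difference was lost only without KMS12PE parental replicate 1 (0.0715). The ELOVL5 difference was lost without KMS12PE A replicate 3 (0.0726), C replicate 3 (0.0667), D replicate 3 (0.0559) or parental replicate 1 (0.229), and without KMS27 C1 replicate 2 (0.0517), C5 replicate 1 (0.0664), parental replicate 1 (0.115) or parental replicate 2 (0.0915). The FADS3 difference was kept without KMS12PE C replicate 1 (0.0174) or KMS27 B5 replicate 1 (0.0490) or 2 (0.0405), and was lost without each of the other 13 libraries (0.0566 to 0.213), with DESeq2's size factors in edgeR (0.0539) and by DESeq2 (0.0808).

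**Figure D4:**
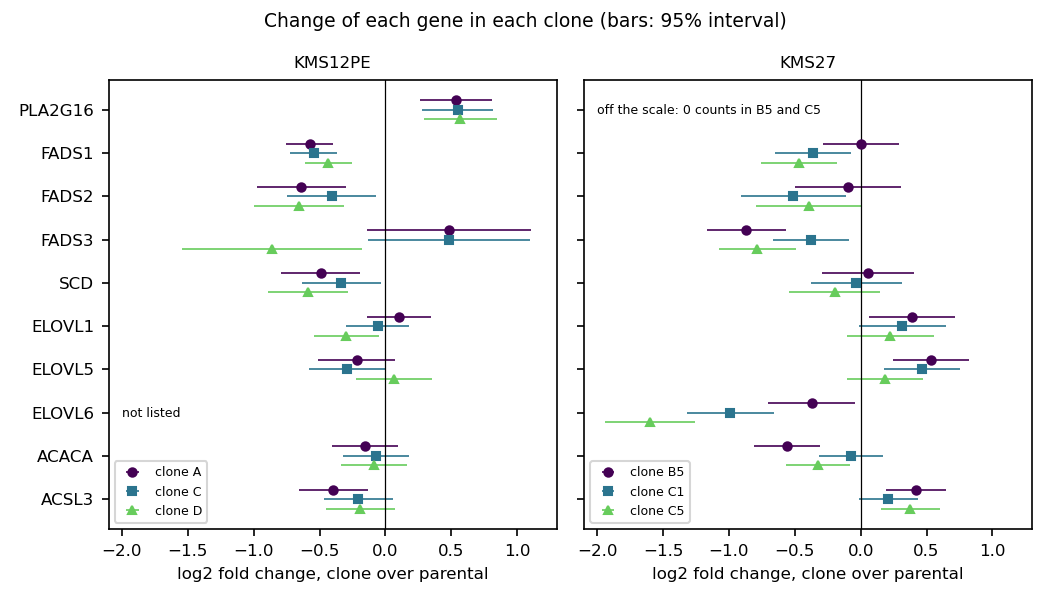
Log2 fold change of each clone over its parental cells for the 10 members, with 95% intervals, in KMS12PE (ELOVL6 not listed) and KMS27 (PLA2G16 off the scale). In KMS12PE, PLA2G16 lies to the higher side and FADS1, FADS2 and SCD to the lower side in all 3 clones, and in KMS27, ELOVL6 and FADS3 lie lower while ELOVL5 and ACSL3 lie higher.

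Divided by the merged exon length of each gene, parental levels put SCD first in both lines, with 147 CPM per kb in KMS12PE and 38.0 CPM per kb in KMS27, where ELOVL5 followed at 37.7. In KMS12PE parental cells the other levels per kb were 53.5 for ELOVL5, 33.5 for ACACA, 27.4 for FADS2, 22.5 for ELOVL1, 20.6 for ACSL3, 19.6 for FADS1, 10.9 for PLA2G16 and 0.755 for FADS3. In KMS27 parental cells they were 16.7 for ELOVL1, 13.5 for FADS1, 5.21 for FADS3, 5.15 for ACSL3, 4.77 for FADS2, 4.08 for PLA2G16, 3.82 for ACACA and 3.42 for ELOVL6. The order from FADS3 to ELOVL6 in KMS27 is of near neighbours.

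The 4 genes on chromosome 11 were set against their surroundings, because chromosome 11 as a whole was lower in KMS27 clones. Of 661 genes tested on it, 16 were higher and 350 lower (53.0%) in the mean of the KMS27 clones, with a median log2 fold change of -0.46 (-0.59 in B5, -0.36 in C1 and -0.38 in C5). FADS1 (-0.28), FADS2 (-0.33) and FADS3 (-0.68) stand beside that median, and its part in their change was not tested. In KMS12PE 8 of 644 genes were higher and 15 lower (2.33%), with a median of 0.01. Within 500 kb of the FADS1 start, members left out, 0 of 14 tested neighbours were higher and 10 lower in the mean of the KMS27 clones (median -0.59). In the mean of the KMS12PE clones 0 of 11 were called by edgeR or DESeq2 and 0 had an unadjusted p under 0.05 (median -0.02). FADS1 was at -0.52 there. FADS2 (-0.57) and FADS3 (0.04), which lie in the same window, are members and not among these neighbours. Members aside, the nearest listed gene on the side of lower coordinates was TMEM258, a subunit of the oligosaccharyltransferase complex. It had a log2 fold change of -0.70 (edgeR adjusted p = 0.0205) in KMS27 and -0.20 (0.545) in KMS12PE. On the other side, the chloride channel gene BEST1 was at -0.92 in KMS27 (0.00441), and the ferritin gene FTH1 was at 0.14 in KMS12PE (0.936). The KMS27 call of TMEM258 was lost without parental replicate 1 (0.0597) or 2 (0.169), C1 replicate 1 (0.0625) or C5 replicate 1 (0.0673), and that of BEST1 without parental replicate 1 (0.0985).

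Around the PLA2G16 start, 0 of 9 tested neighbours were higher and 5 lower in the mean of the KMS27 clones (median -0.47). In the mean of the KMS12PE clones 0 of 9 were called by edgeR or DESeq2, with 1 of 9 at an unadjusted p under 0.05 (median 0.05). The nearest listed genes were HRASLS2, a relative of PLA2G16 that starts 53.5 kb towards lower coordinates, and ATL3, which shapes the endoplasmic reticulum and starts 55.0 kb towards higher coordinates. ATL3 fell by 0.44 in KMS27 clones (adjusted p = 0.0100), near the median of the chromosome, and was not called without parental replicate 1 (0.104) or 2 (0.0836). In KMS12PE, HRASLS2 was at 0.27 in A (edgeR adjusted p = 0.688), at -0.000126 in C (0.9998) and at 0.64 in D (0.0170). The call in D was not rerun in the alternatives. In KMS27, HRASLS2 was at 0.22 in B5 (edgeR adjusted p = 0.728), at 1.14 in C1 (0.0572) and at -1.94 in C5 (0.0153). The C5 call of HRASLS2 was lost without C5 replicate 1 (0.105), C5 replicate 2 (0.110) or parental replicate 1 (0.0944). RARRES3, a further relative in the same window that was chosen after its values were seen, was at 0.04 in B5 (0.944), at 0.59 in C1 (0.242) and at -2.85 in C5 (0.00152). RTN3 and FLRT1, in the window and also named after their values were seen, were lower in B5 (-1.075 and -1.019), C1 (-0.638 and -0.627) and C5 (-1.079 and -1.755). The part of the region in the loss of PLA2G16 was not tested.

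**Figure D5:**
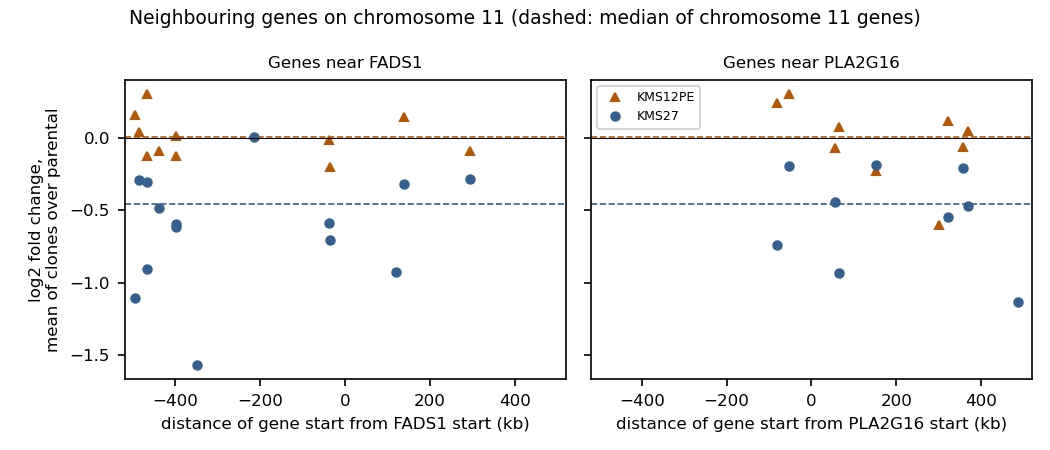
Log2 fold change of the mean of the clones over parental cells for tested genes within 500 kb of FADS1 and of PLA2G16, against the distance of their starts in kb, for each line. The members are left out. Dashed lines mark the median of chromosome 11, 0.01 in KMS12PE and -0.46 in KMS27. In the mean of the KMS27 clones, 10 of 14 neighbours near FADS1 and 5 of 9 near PLA2G16 were lower. None was called in the mean of the KMS12PE clones.

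The genes closest to FADS1 in profile over the 8 KMS12PE libraries, among 9062 candidates, were ZNF728, SLC2A13, PLCB1, UBE2T and PSRC1, with root mean square distances of 0.0837 to 0.102 on centred log2 CPM. All 5 are outside the lists of lipid genes used below.

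Other genes of the pathway were read from lists written from general knowledge, members included except where a contrast chose them. In KMS12PE clones few were called, and 1.47% of all genes tested were called in the mean of the clones. In the mean of the clones 0 of 14 genes of fatty acid synthesis, 0 of 10 of desaturation, 0 of 9 of elongation, 0 of 17 of SREBP and LXR control, 0 of 13 of phospholipid acylation, 0 of 10 of lipid peroxide defence and eicosanoid synthesis, and 0 of 16 SREBP2 targets were called by edgeR, with medians from -0.17 to 0.05. At an unadjusted p under 0.05 the same lists had 1, 2, 2, 3, 1, 1 and 6 genes, in that order, against 10.6% of all genes. At that level 6 of 16 acyl-CoA synthetases and carriers, 6 of 19 PLA2G16 relatives and phospholipases A and 4 of 23 oxidation genes passed too. DESeq2 called 2 of desaturation, 1 of SREBP and LXR control and 1 SREBP2 target, against 1.42% of all genes. Genes outside the members that were called included the fatty acid carrier SLC27A3 (log2 fold change -2.38, adjusted p = 0.0242, 1 of 16 genes of its list), the lipase-family gene PNPLA4 (-1.27, 0.0164, of 19) and, of 23 oxidation genes, HADHB, a subunit of the mitochondrial trifunctional protein (0.39, 0.0387). Each of these 3 calls was lost without at least 1 clone library and without a parental one, with adjusted p up to 0.314. PNPLA4 was low in clone D alone, with 7.89 CPM in A, 6.71 CPM in C and 0.548 CPM in D, against 7.55 CPM in parental cells (D over parental -3.71, adjusted p = 0.000167).

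Of the regulators of the desaturase genes, none was called by edgeR in the mean of the KMS12PE clones without the block. SREBF1, the SREBP gene that drives fatty acid genes, averaged 32.5 CPM in A, 27.1 CPM in C and 35.1 CPM in D, against 38.8 CPM in parental cells (log2 fold change -0.30, edgeR adjusted p = 0.275, and 0.0455 with the block, with which clone C was called too, at 0.00275). SREBF2, its cholesterol counterpart, had a log2 fold change of -0.18 (adjusted p = 0.561). RXRA, the partner receptor of LXR, named for this line after its values were seen, averaged 0.949 CPM in A, 1.19 CPM in C and 15.1 CPM in D, against 1.24 CPM in parental cells. It rose in D (log2 fold change 3.58, edgeR adjusted p = 0.000211), and this call was kept without each single library. FASN, which encodes fatty acid synthase, averaged 551 CPM in A, 315 CPM in C and 584 CPM in D, against 596 ± 138 CPM in parental cells (SD, n = 2). Only clone C stood apart in FASN (log2 fold change -0.92, adjusted p = 0.0229, and 0.0147 among the clones), while the 3 clones did not differ past the threshold in FADS2 or SCD (0.550 and 0.528). The FASN call in C was lost without C replicate 1 (0.206), C replicate 3 (0.105) or parental replicate 1 (0.133).

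In KMS27 most of the same lists held calls in both directions. Of 14 genes of fatty acid synthesis 4 were higher and 4 lower in the mean of the clones, of 9 of desaturation 2 and 1, of 9 of elongation 2 and 3, of 15 acyl-CoA synthetases and carriers 5 and 1, of 17 of SREBP and LXR control 5 and 3, of 15 of phospholipid acylation 5 and 2, of 23 of oxidation 2 and 3, of 11 of peroxide defence and eicosanoids 2 and 1, and of 16 SREBP2 targets 3 and 0. Of 19 relatives of PLA2G16 and other phospholipases A, 0 were higher and 3 lower. List medians ran from -0.13 to 0.22, against -0.01 for all genes, of which 25.8% were called.

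Of 34 pathway genes outside the members named by a rule on the smallest adjusted p, 13 were called without each single library and in all alternatives. The largest were MBOAT2, a lysophospholipid acyltransferase, and ALOX5AP, which presents arachidonate for leukotriene synthesis. MBOAT2 averaged 0.402 CPM in B5, 0.683 CPM in C1 and 1.23 CPM in C5, against 10.0 CPM in parental cells (log2 fold change -3.86, edgeR adjusted p = 2.76e-05). ALOX5AP averaged 194 CPM in B5, 142 CPM in C1 and 85.8 CPM in C5, against 35.8 CPM in parental cells (1.89, 0.000137). Among the others that were higher were GPAT3, a glycerol phosphate acyltransferase (1.01, 0.000291), AGPAT1 (0.78, 0.00392), CYB5R3, the reductase of cytochrome b5 (0.69, 0.00145), and the SREBP protease gene MBTPS2 (0.66, 0.00145). Lower were the LXR gene NR1H3 (-1.13, 0.00357), ACSM3 (-0.87, 0.00198), HSD17B12, the ketoacyl reductase of elongation (-0.78, 0.00121), ACADM (-0.58, 0.00124), IDH1 (-0.54, 0.00185) and SREBF1. NR1H3 and HSD17B12 lie on chromosome 11.

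SREBF1 averaged 6.88 ± 1.16 CPM in B5, 13.8 ± 0.990 CPM in C1 and 9.84 ± 0.712 CPM in C5, against 16.7 ± 1.08 CPM in parental cells (SD, n = 2 each). It fell by 0.77 in the mean of the clones (edgeR adjusted p = 0.00268), by 1.28 in B5 (0.00113) and by 0.76 in C5 (0.0114, but lost without either C5 library or parental replicate 1, with adjusted p of 0.0618 to 0.0989), and was not called in C1 (-0.28, 0.244). By population mean, ACACA and FADS3, like SREBF1, were lowest in B5 and highest in C1 among the clones. The other members tested were highest in B5, with ELOVL6, FADS1, SCD, ELOVL1 and ELOVL5 lowest in C5. FADS2 and ACSL3 were lowest in C1. Of these members, ELOVL6 and ACACA alone were called in the joint test among the clones. A link of SREBF1 to these orders was not tested. SREBF2 was not called (0.11, 0.563). FASN had a log2 fold change of -0.12 (0.402) and was called as lower in B5 alone (-0.41, 0.0451), a call lost in 7 of the 8 fits without 1 library, with adjusted p up to 0.334.

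The other 21 genes lost their call without at least 1 parental library, 17 of them without parental libraries only and 4 (ACAD9, ACSL5, FDFT1 and LSS) also without a clone library. The highest adjusted p of each without 1 library ran from 0.0509 to 0.294. Higher among them, with all libraries, were ACSS2 (log2 fold change 1.00, edgeR adjusted p = 0.00661), NSDHL (0.93, 0.00392), SLC27A1 (0.90, 0.00989), FDFT1 (0.62, 0.0238), RXRA (0.61, 0.00395), TFRC (0.57, 0.00474), LPGAT1 (0.51, 0.00721), HACD3 (0.42, 0.00807), ACSL4 (0.41, 0.00879), ACSL5 (0.41, 0.0246), ACAD9 (0.40, 0.0282), DEGS1 (0.39, 0.0120) and LSS (0.35, 0.0467). Lower were PNPLA4 (-1.34, 0.00351), ELOVL7 (-1.27, 0.0160), the cystine carrier gene SLC7A11 (-0.76, 0.0103), OXSM (-0.64, 0.00601), the carnitine carrier gene SLC25A20 (-0.59, 0.0126), the triglyceride lipase gene PNPLA2 on chromosome 11 (-0.55, 0.00817), HSD17B4 (-0.44, 0.00876) and PNPLA8 (-0.35, 0.0116). ELOVL7 (0.0714) and SLC25A20 (0.0797) also lost it when both B5 libraries were left out. In KMS27, PNPLA4 averaged 4.61 CPM in B5, 2.13 CPM in C1 and 1.95 CPM in C5, against 6.76 CPM in parental cells.

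The labelled cell type was checked against 12 plasma cell marker symbols, of which 11 were listed in each table. Their summed level was 3559 to 4542 CPM in KMS12PE clone libraries, against 4021 to 4425 CPM in parental ones, and 6485 to 11362 CPM in KMS27 clone libraries, against 11008 to 12695 CPM in parental ones. In the mean of the clones 2 of the 11 markers were called in KMS12PE (1.47% of all genes) and 3 in KMS27 (25.8%). All were lower, namely POU2AF1 and JCHAIN (log2 fold change -0.64) in KMS12PE, and CD38, MZB1 (-1.08) and JCHAIN (-0.87) in KMS27. Not called, but above parental cells on average, were SDC1, CD38, TNFRSF17, IRF4, PRDM1 and CCND1 in KMS12PE, and TNFRSF17 and POU2AF1 in KMS27. The other markers were below parental cells on average and were not called. POU2AF1 averaged 4.26 CPM in A, 4.97 CPM in C and 0 CPM in D, against 34.8 CPM in KMS12PE parental cells. CD38 averaged 77.4 CPM in B5, 88.5 CPM in C1 and 2.54 CPM in C5, against 108.7 CPM in KMS27 parental cells, so its fall was largest in C5. In KMS27, 2 of 8 T and NK cell markers were listed, with sums of 1.08 to 3.27 CPM in clone libraries, against 0.508 to 0.741 CPM in parental ones. Both were called higher in the mean of the clones, CD3E (log2 fold change 1.18, edgeR adjusted p = 0.0289) and NKG7 (3.06, 0.0410). They had 31 and 2 counts in the parental population. Of 8 myeloid markers ITGAM alone was listed there, at 0.298 to 1.68 CPM in clone libraries, against 0.0363 to 0.0780 CPM in parental ones. ITGAM was called higher too (log2 fold change 3.45, edgeR adjusted p = 0.00353), on 3 counts in the parental population. The stromal marker PDGFRB was listed in KMS27, at a mean of 0.180 CPM in clones against 0.134 CPM in parental cells. It did not pass the filter. In KMS12PE, 2 T and NK cell markers were listed, at 1.89 to 6.18 CPM in clone libraries, against 4.87 to 5.97 CPM in parental ones, and no myeloid marker was. No erythroid marker was listed in either line, and the defining markers CD14, LYZ and CD3D were not listed. The part of plasma cell identity in the results above was not tested.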

How the data were processed

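Poly-A RNA was sequenced from 16 libraries of 8 populations (Roche Kapa mRNA HyperPrep, per the labels' protocols). For each line the authors deposited whole-number read counts by gene symbol, which the values show to be without normalization. The build was hg38, per the submitters' processing notes. The aligner, the counter, the annotation and the use of strand were not given in the sources used here. Every gene listed had at least 5 counts in at least 4 of 8 libraries of its line, so genes silent in most libraries were not analysed. In CPM, 3 counts were worth 0.212 to 0.527 in KMS12PE and 0.0596 to 0.160 in KMS27, and such limits cover counting error only.

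The libraries of each line were modelled separately in edgeR 4.0.16 under R 4.3.3 (filterByExpr, TMM, estimateDisp, glmQLFit and glmQLFTest, 1 mean per population, 2-sided, Benjamini-Hochberg over all genes tested, called under 0.05). This left 12279 genes in KMS12PE and 14088 in KMS27, with a biological coefficient of variation of 11.9% and 14.3%. A joint fit of 16 libraries gave the difference between lines. The scripts were tested on simulated data. Alternatives were a replicate block, DESeq2 1.42.0, DESeq2-type size factors, no further filter, a clone with its parental cells alone, and each library left out. The replicate number was taken to pair the KMS12PE libraries, where the differences between replicates correlated at 0.254 to 0.537 between populations, and not the KMS27 libraries. The main tests held no block in either line, so KMS12PE values given without mention of the block ignore that pairing. No 2 libraries agreed within sampling noise (chi-square per degree of freedom 4.95 or more).

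Members and lists were chosen with earlier results of these data known. Named pathway genes were up to 4 per list and line with the smallest adjusted p among those called in the mean of the clones, with SREBF1, SREBF2 and FASN always, and some genes that met the rule are not reported here. Profiles were compared among genes with a mean of at least 3 log2 CPM, or 0 for PLA2G16. Promoters are from RefSeq (all 10 members matched, PLA2G16 as PLAAT3).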

Additional observations from a re-analysis of the deposited data

Results flagged for a closer look

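The response of the clones differed between the lines in a joint test for 3 members (KMS12PE minus KMS27, edgeR). FADS3 differed by 0.72 on the log2 scale (adjusted p = 0.0473), with 0.04 in KMS12PE clones and -0.68 in KMS27 clones. ELOVL5 differed by -0.53 (adjusted p = 0.0408), with -0.15 in KMS12PE and 0.39 in KMS27. ACSL3 differed by -0.59 (adjusted p = 0.00955), with -0.26 in KMS12PE and 0.34 in KMS27, and it alone of the 3 was kept without all but 1 of the 16 libraries.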

How the results depend on the processing

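With all libraries, the number of other members called was 1 in the mean of the KMS12PE clones, 0 in A, 0 in C, 3 in D and 1 among the clones, and 5 in the mean of the KMS27 clones, 4 in B5, 2 in C1, 4 in C5 and 2 among the clones. With the replicate block it was 4 in the KMS12PE mean (6.5% of all genes), 4 in A (3.65%), 4 in C (7.08%) and 4 among those clones (26.1%). In KMS27 the numbers were not taken to pair the libraries. The correlations there were 0.0597 to 0.444, and the highest, of B5 with parental cells, was within the range of KMS12PE. The replicate block gave 8 in the KMS27 mean (with 31.4% of all genes called), 4 in C1 (27.8%) and 4 among the clones (21.0%). DESeq2 gave 3 in the KMS12PE mean (1.42% of all genes), 2 in A (0.762%) and 0 among the clones (7.36%), and 4 among the KMS27 clones (18.4% of all genes). A fit of 1 clone with its parental cells alone gave 0 in D (2.92% of all genes), 1 in B5 (8.46%) and 6 in C1 (34.8%). With 1 library left out, the lone library of its population being taken to vary like the others, the number ran from 0 to 2 in the KMS12PE mean, 0 to 0 in A, 0 to 1 in C, 0 to 2 in D and 0 to 1 among the clones, from 2 to 7 in the KMS27 mean, 1 to 6 in B5, 1 to 6 in C1, 1 to 5 in C5 and 1 to 6 among the clones, and from 0 to 4 for the difference between lines. In both lines the share of all genes called also moved between these fits. In the KMS27 mean it was lowest without parental replicate 1 and highest without B5 replicate 1. The ranges are therefore not a measure of the members alone, and whether members moved more than other genes was not tested. No result changed direction while called. Over all genes the block moved the calls in the KMS12PE mean to 798 (181 without it), in A to 448 (55), in C to 869 (219), in D to 2019 (634) and among the clones to 3208 (1009). Leaving out both B5 libraries, added after seeing the data, gave 5303 calls in the KMS27 mean (3631 with them). Among the members' calls and the named genes, DESeq2-type size factors moved 2 and leaving out the filter moved 0. The cause of these changes was not tested. KMS12PE libraries were shallower than KMS27 libraries, and 2 libraries per population limit every call.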
